A study of Mus musculus with 3 samples.

Results

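The regions described here are 4415 narrow peaks that lie outside every annotated gene and far from protein-coding genes, in a map of RNA precipitated with MTR4. They are 28.0% of the 15769 peaks in the list. A peak was taken when it was exactly 20 nt wide, when its midpoint lay outside every RefSeq gene body and over 3000 nt from the nearest protein-coding gene end, and when it fell outside 4 windows on chromosomes 5, 6, 8 and 17. Of 15093 peaks of 20 nt, 5268 lay outside every gene body, 4465 of these passed the distance, and 50 of them were in the windows left out. The nearest members lay 3016, 3018 and 3028 nt from a protein-coding gene end, and the nearest narrow peaks on the other side of that limit lay 2993, 2979 and 2978 nt away. The term "member" is used below for 1 of the 4415 peaks, and "territory" for the genome in which a member could lie under the same rule, 1370 Mb.

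The map comes from LACE-seq, which crosslinks RNA to a protein by ultraviolet light, pulls the protein down with an antibody and reads where reverse transcription of the bound RNA stopped. The antibody was against MTR4, and the cells were KIT-positive cells sorted from testes of mice at postnatal day 8 that carried the genotype Mtr4WT; KIT is the surface receptor of differentiating spermatogonia. All 3 samples belonged to this group; no control precipitation or input was analysed here, so background could not be separated from contacts and no groups were compared. The results rest on 1 list, recorded under replicate 3, which gives each peak a sign and a position on a grid of 20 nt without any score or number of reads, and depth is unknown. As a check of the sorted cells, peaks were counted in the bodies of genes listed as markers. For differentiating spermatogonia, Kit, Dmrt1 and Ddx4 held 2, 2 and 1 peaks and Dazl, Sohlh1 and Stra8 held 0. A peak was also held by 3 of 5 Sertoli and 2 of 5 Leydig or interstitial marker genes. For scale, of 17492 protein-coding genes with a known strand, 3938 held a narrow peak that lay in no other gene. Gene length was not adjusted for, so these counts do not show which cells were present. The part of other cells in the results was not tested.

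MTR4, encoded by Mtrex, is an RNA helicase of the nucleus that feeds transcripts to the exosome, the complex that trims or degrades RNA from its end. In mammalian cells it works in adaptor complexes that act on short-lived RNA made outside annotated messages: RNA transcribed upstream of promoters, RNA of enhancers, extended transcripts of small RNA genes, and long noncoding RNA. Much of such RNA comes from places where no gene is annotated.

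Few members lay at a known transcription start, and by the rule none could lie at one of a protein-coding gene. The promoter table of RefSeq (build GRCm38.p6) gives 300 bases around the starts of protein-coding and long noncoding genes, 250 before and 50 after. In all, 16 members lay wholly inside such a window, each at a different long noncoding gene. No density is given for these windows, so the count does not show whether members favour starts. The sequences of the 6 closest to the annotated start are printed at the positions the list gives. Peaks beside tRNA and snRNA genes, described below, lay almost all at the end with the lower coordinate. Whether positions in the list are displaced by 20 to 40 nt was not settled, so the bases marked may not be those bound. Each runs 5′ to 3′ in the direction of the gene, with the 20 nt of the member in capitals and up to 40 bases on either side. The order is by distance of the midpoint from the start.
Gm36528 (chr5:132756421-132756520, minus strand): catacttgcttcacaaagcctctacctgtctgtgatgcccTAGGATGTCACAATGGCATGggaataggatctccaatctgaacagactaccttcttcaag
Gm39133 (chr8:12749141-12749240, plus strand): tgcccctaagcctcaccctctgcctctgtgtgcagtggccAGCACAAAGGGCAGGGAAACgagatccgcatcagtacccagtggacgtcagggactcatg
Gm36809 (chr7:24954461-24954560, minus strand): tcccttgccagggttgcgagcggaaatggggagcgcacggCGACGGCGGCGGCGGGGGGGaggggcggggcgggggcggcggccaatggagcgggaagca
Gm31816 (chr9:47368721-47368820, minus strand): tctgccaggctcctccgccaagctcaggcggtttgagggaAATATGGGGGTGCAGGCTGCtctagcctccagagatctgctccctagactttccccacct
Gm33351 (chr11:71574601-71574700, minus strand): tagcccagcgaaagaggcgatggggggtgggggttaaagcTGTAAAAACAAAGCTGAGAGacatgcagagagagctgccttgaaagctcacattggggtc
Urml (chr13:68234741-68234840, minus strand): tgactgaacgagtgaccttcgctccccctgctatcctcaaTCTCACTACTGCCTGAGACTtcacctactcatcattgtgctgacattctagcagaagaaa
As placed in the list, the midpoint lay 1 nt before the start of Gm36528 and 10 nt before that of Gm39133. Both members as placed reach the start base. The midpoint lay 34, 41, 51 and 59 nt before the starts of Gm36809, Gm31816, Gm33351 and Urml. The 16 members had no common base composition. Their G and C content ran from 25% to 95% with a median of 50%, and the member at Gm36809 was the one at 95%. The 16 windows as a whole had a median of 50.8%, against 48.3% over 11588 windows of long noncoding genes. The 2 motifs searched were both chosen after the sequences had been seen. The letters AATAAA, the usual signal for cleavage and polyadenylation, occurred on either strand in 4 of the 16 windows (25%), against 25.9% of all long noncoding windows. The letters CACGTG, which read the same on both strands and do not overlap with the first motif, occurred in 1 of 16 (6.25%), against 5.89%. The sign of the member was that of the gene in 7 cases and the opposite in 9.

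The densest territory was the immediate surroundings of small structured RNA genes. Within 100 nt of a tRNA gene lay 22 members, 518 per Mb of territory (95% exact Poisson interval 325 to 785), which was 161-fold the density over all territory. Within 100 nt of a spliceosomal snRNA gene lay 10, or 97.2 per Mb (46.6 to 179), 30.1-fold. All these intervals cover counting error only and treat peaks as independent. The tRNA genes included n-TVcac5 with its member 1 nt away, n-TKctt16 with 2 nt and n-TGgcc14 with 6 nt, and the snRNA genes included Rnu1b1 of U1 with 3 nt and Rnu11 of U11, of the minor spliceosome, with 9 nt; these examples were chosen after their values were seen. Around snoRNA genes the count within 100 nt was 0, in 0.101 Mb of territory, which allows up to 36.7 per Mb. Both tRNA and snRNA genes exist in many near-identical copies, and reads of one copy may have been placed at another.

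All 32 members beside tRNA and snRNA genes lay at the end with the lower coordinate, whatever their sign. Of the 22 at tRNA genes, 7 had the plus sign and 15 the minus sign, and of the 10 at snRNA genes 3 and 7. The same held nearly throughout the list: of 60 peaks of any width that lay outside a tRNA or snRNA gene but within 100 nt of it, 59 were at the lower end. The strand of these genes is not in the tables used here. With every peak moved 20 nt towards higher coordinates, 19 members were left within 100 nt of these genes, and with 40 nt 5 were left. Counting any overlap with a gene as inside it left 23, and with small RNA genes and pseudogenes not counted as genes there were 140. The placing at 1 end was noticed in the data, and the moves were chosen after it had been seen. Members beside the small RNA genes and members in them cannot be told apart at this resolution.

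Members also lay beside miRNA genes, whose hairpins are cut from longer primary transcripts. Within 1000 nt of such a gene lay 7 members, 21.5 per Mb (95% exact Poisson interval 8.66 to 44.4) and 6.69-fold the overall density, and all 7 had the minus sign. On chromosome 16 the members at chr16:77598901-77598920 and chr16:77646241-77646260 lay 26 nt from Mir99a and 23 nt from Mir125b-2. Both were at the end with the lower coordinate, so the limit on positions above applies to them too. Over the whole list, peaks within 100 nt outside a miRNA gene lay at either end. At the lower end were 4 plus and 5 minus peaks, and at the higher end 4 plus and 4 minus peaks. Whether positions are displaced beside miRNA genes was not tested. A member lay 206 nt from Mirlet7i, 2 lay 212 and 292 nt from Mir5099, and 1 each lay 519 nt from Mir300 and 621 nt from Mir384. The hairpin's strand was known for 6 of the 7. The sign was opposite to it in 4, and 3 members were upstream and 3 downstream. The mature miRNAs of the 2 closest hairpins with a sequence, from RefSeq (GRCm38.p6), are printed to identify them, with the seed, bases 2 to 8, in capitals.
miR-99a-5p: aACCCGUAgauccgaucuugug
miR-99a-3p: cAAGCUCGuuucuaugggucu
let-7i-5p: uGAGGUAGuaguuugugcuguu
let-7i-3p: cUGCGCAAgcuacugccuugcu
No seed was shared among these 4.

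Long noncoding genes and pseudogenes were surrounded by a smaller excess. Within 1000 nt of a long noncoding gene lay 102 members, or 7.53 per Mb (95% exact Poisson interval 6.14 to 9.14, 2.34-fold the overall density), and within 100 nt 17, or 12.2 per Mb (7.13 to 19.6, 3.80-fold). For pseudogenes the numbers were 68, at 4.90 per Mb (3.81 to 6.21, 1.52-fold), and 20, at 14.2 per Mb (8.66 to 21.9, 4.40-fold). Even so, 4193 of the 4415 members lay over 1000 nt from any noncoding gene or pseudogene, and the median distance was 28.4 kb. Members had such a neighbour within 1000 nt less often than narrow peaks up to 3000 nt outside protein-coding genes, 222 of 4415 (5.03%, 95% Wilson interval 4.42 to 5.71) against 58 of 797 (7.28%, 5.67 to 9.29; Fisher's exact test, two-sided, p = 0.017 adjusted over 8 tests). As in all tests below, the p-value treats peaks as independent, which close neighbours are not, and with 1 list it has no replicate check. With every peak moved 40 nt towards higher coordinates the shares were 4.29% and 6.06% and the exact test did not pass (adjusted p = 0.052). How much territory of each class lies within 1000 nt of such a neighbour was not compared. The test therefore cannot show whether the 2 classes differ beyond what the places of the annotated genes give.

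**Figure D1:**
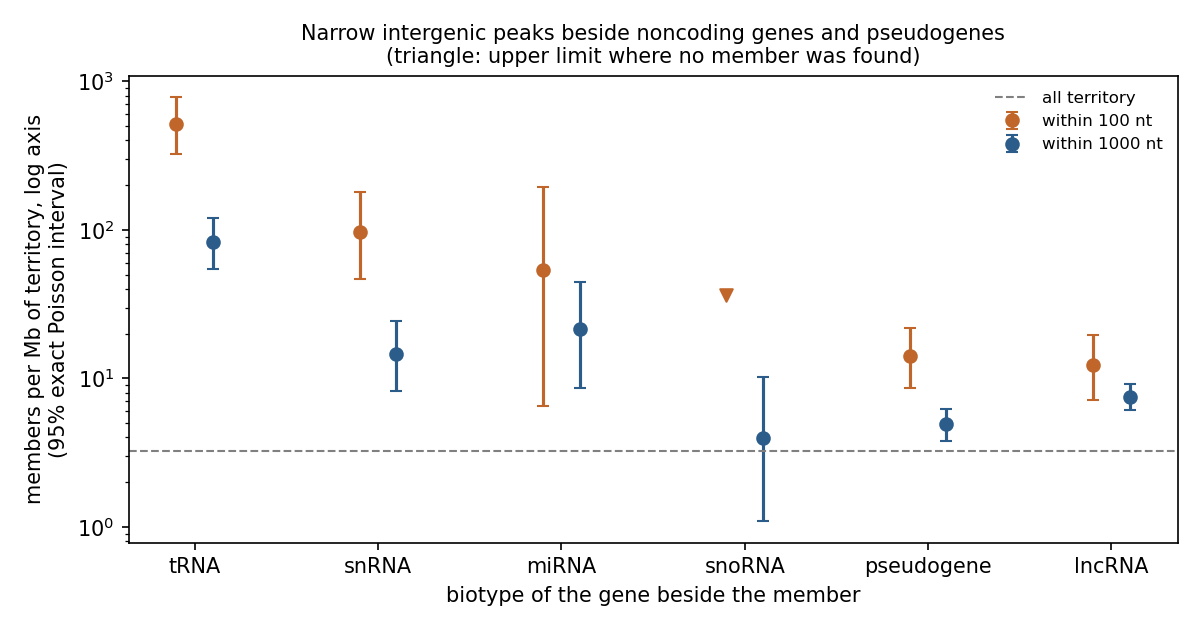
Members per Mb of territory (log axis) within 100 nt (orange) and within 1000 nt (blue) of genes of 6 biotypes, with 95% exact Poisson intervals; the dashed line is the density over all territory, 3.22 per Mb. Territory within 100 nt of tRNA genes stands highest at 518 per Mb, and the triangle is the upper limit of 36.7 per Mb for snoRNA genes, where no member was found.

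Members thinned out with distance from protein-coding genes and did so far beyond the limit of the rule. Over all territory there were 3.22 per Mb (95% exact Poisson interval 3.13 to 3.32). Between 3 and 10 kb from a protein-coding gene end there were 683 members, 4.92 per Mb (4.56 to 5.31), and between 10 and 20 kb 626, 4.94 per Mb (4.56 to 5.35). Up to 20 kb no decline was seen. The density was then 4.00 per Mb from 20 to 50 kb, 3.33 from 50 to 100 kb, 3.02 from 100 to 200 kb and 2.47 from 200 to 500 kb. Beyond 500 kb it was 1.48 per Mb (1.33 to 1.65), from 330 members in 223 Mb. For scale, narrow peaks up to 3000 nt outside protein-coding genes stood at 9.13 per Mb (8.51 to 9.79).

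Territory at 3 to 10 kb held 2.12-fold the density of territory beyond 100 kb, 4.92 against 2.32 per Mb (exact conditional binomial test, two-sided, adjusted p = 1.1e-53). The near density was higher on 20 of 21 chromosomes, by 1.27-fold to 4.29-fold on the 19 autosomes and 1.44-fold on X. Chromosome Y went the other way at 0.240-fold, with 1 member in its near territory. Without X and Y the ratio was 2.13. Unsequenced and unmappable bases could not be taken out of the territory, and their part in the decline was not tested.

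**Figure D2:**
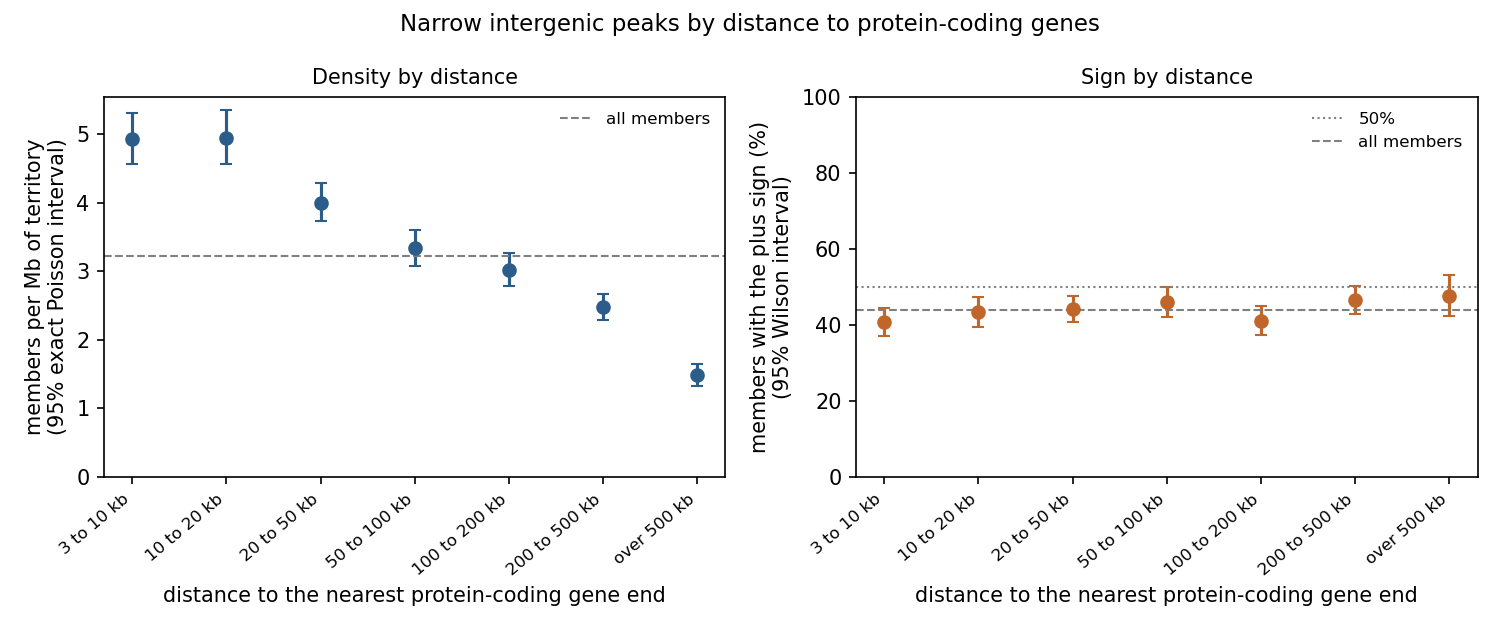
Left, members per Mb of territory in 7 classes of distance to the nearest protein-coding gene end, with 95% exact Poisson intervals; right, the share of members with the plus sign in the same classes, with 95% Wilson intervals. Density falls from 4.92 per Mb at 3 to 10 kb to 1.48 beyond 500 kb, while the plus share stays between 40.7% and 47.6%.

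Up to 50 kb, upstream and downstream sides of genes carried members at about the same density. Gene strand, read from the promoter table, was known for the nearest gene of 3472 members. From 3 to 10 kb the density was 4.88 per Mb upstream (95% exact Poisson interval 4.32 to 5.48) and 4.61 downstream (4.05 to 5.22), and from 20 to 50 kb 4.15 (3.73 to 4.59) and 4.11 (3.66 to 4.59). These intervals overlap. From 50 to 100 kb they did not, with 3.91 per Mb upstream (3.48 to 4.38) and 2.97 downstream (2.58 to 3.41), a difference that was not tested.

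No relation was detected between the sign of a member and the side of the nearest gene on which it lay. Within 50 kb the sign was opposite to the gene's strand in 352 of 781 downstream members (45.1%, 95% Wilson interval 41.6 to 48.6) and 433 of 921 upstream members (47.0%, 43.8 to 50.2), a difference the test did not detect (Fisher's exact test, two-sided, adjusted p = 0.44). In the nearest class, 3 to 5 kb, the opposite sign was found in 41 of 80 downstream members and 40 of 80 upstream ones. This bears on how far any sign in the list gives a direction of transcription. Inside protein-coding genes the sign was opposite to the gene's strand for 3137 of 5959 narrow peaks that lay in exactly 1 gene (52.6%, 51.4 to 53.9). In genes with 1 such peak it was 49.6% (47.7 to 51.5), and in the 78 genes with 5 peaks or more 57.5% (53.0 to 61.9). A single sign is therefore not used below to state which strand a member's RNA came from.

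The minus sign was the commoner one, less so among members than in protein-coding genes. The plus sign was carried by 1939 of 4415 members (43.9%, 95% Wilson interval 42.5 to 45.4), against 2861 of 8313 narrow peaks inside protein-coding genes (34.4%, 33.4 to 35.4; Fisher's exact test, two-sided, adjusted p = 4.2e-25). Narrow peaks up to 3000 nt outside protein-coding genes had it in 31.4% (28.2 to 34.7), and narrow peaks in stand-alone long noncoding genes in 43.0% (40.1 to 46.0). Among members alone within 10 kb the share was 44.0%.

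The sex chromosomes had the lowest densities of members. Among the 19 autosomes the density ran from 2.89 per Mb on chromosome 14 to 4.42 on chromosome 19, with a median of 3.56. Chromosome X held 272 members, 2.42 per Mb (95% exact Poisson interval 2.14 to 2.73), which was 0.698-fold the 3.47 per Mb of all autosomes pooled (exact conditional binomial test, two-sided, adjusted p = 2.6e-09). Male cells carry 1 copy of X and Y. The part of copy number in these densities was not tested, nor was that of unsequenced and unmappable bases left in the territory. Chromosome Y held 80 members, 0.930 per Mb (0.737 to 1.16), and these were 88.9% of its 90 peaks. The plus share was below 50% on 19 of 21 chromosomes, lowest at 36.7% on chromosome 11. The exceptions were X with 53.7% (95% Wilson interval 47.7 to 59.5), which overlaps intervals of autosomes such as chromosome 1 (48.3%, 42.6 to 54.0), and Y with 62.5% (51.5 to 72.3). Sign by chromosome was not tested.

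**Figure D3:**
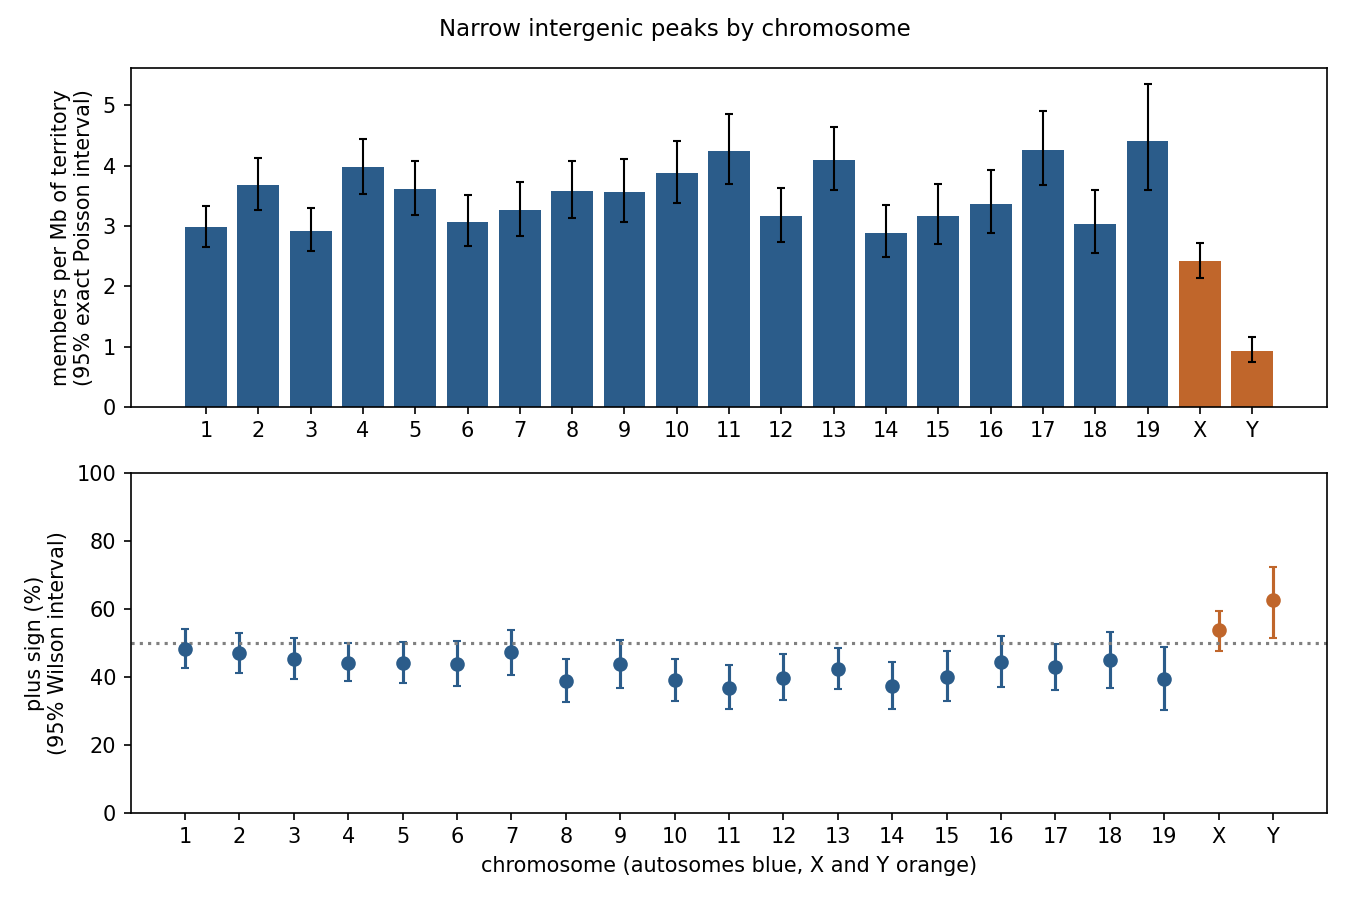
Members per Mb of territory (top, bars from 0 with 95% exact Poisson intervals) and share of members with the plus sign (bottom, with 95% Wilson intervals) on each chromosome. X at 2.42 and Y at 0.930 per Mb lie below all autosomes, and their plus shares are above 50%, with an interval that includes 50% for X.

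Most members were solitary. With members chained into a group when the gap was up to 10 kb, 3856 (87.3%) were alone, 210 groups had 2 members and 38 groups had 3 or more. Another peak of the list lay within 1000 nt of 262 members (5.93%, 95% Wilson interval 5.27 to 6.67). That was less often than for narrow peaks just outside protein-coding genes, 118 of 797 (14.8%, 12.5 to 17.4; Fisher's exact test, two-sided, adjusted p = 2.2e-15), and for narrow peaks in stand-alone long noncoding genes, 123 of 1046 (11.8%, 9.95 to 13.9; adjusted p = 8.7e-10 by the same exact test). The rule itself lowers the share of members, since no peak inside a protein-coding gene can lie that close to one. With neighbours inside protein-coding genes not counted, a setting added after the data had been seen, the shares of the other classes were 9.41% (adjusted exact p = 0.00066) and 11.2% (adjusted exact p = 2.8e-08). Density also differed, at 3.22 per Mb for members and 9.13 for narrow peaks just outside protein-coding genes. Denser peaks have close neighbours more often even when placed at random. The tests do not adjust for density, so they cannot show whether members cluster more or less than their density gives.

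Close neighbours mostly shared their sign, and pairs over 5000 nt apart did so no more often than independent signs would. Of 98 adjacent member pairs over 20 and up to 500 nt apart, 92 had 1 sign (93.9%, 95% Wilson interval 87.3 to 97.2), 45 of them plus and 47 minus. Of the 24 pairs from 500 to 1000 nt apart it was 12 (50%, 31.4 to 68.6), and of the 95 pairs from 1000 to 5000 nt apart it was 63 (66.3%, 56.3 to 75.02). Of 4173 pairs over 5000 nt apart, 50.6% (49.1 to 52.2) had 1 sign, and 50.7% would follow from the plus share alone if signs were independent. The 4 pairs within 20 nt all had opposite signs, but the list holds 0 touching peaks of 1 sign, so no other outcome was possible.

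Within 1000 nt, 104 of 126 member pairs shared a sign (82.5%, 95% Wilson interval 74.98 to 88.2), against 362 of 495 pairs of narrow peaks inside protein-coding genes (73.1%, 69.1 to 76.8; Fisher's exact test, two-sided, adjusted p = 0.033). The difference passed with the pair distance set to 500 nt (90.2% against 72.8%, adjusted exact p = 0.00017) or 5000 nt (75.6% against 68.2%, adjusted exact p = 0.046), and without chromosomes X and Y (86.0% against 72.9%, adjusted exact p = 0.005). It did not pass without members within 1000 nt of noncoding genes (81.0% against 73.1%, adjusted exact p = 0.11), nor with members required to lie over 5000 nt (82.4%, adjusted exact p = 0.051) or 10000 nt (79.2%, adjusted exact p = 0.29) from protein-coding genes. With pairs up to 100 nt apart left out whatever their signs, a setting chosen after the data had been seen, it was 75.8% against 72.4% (adjusted exact p = 0.64).

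**Figure D4:**
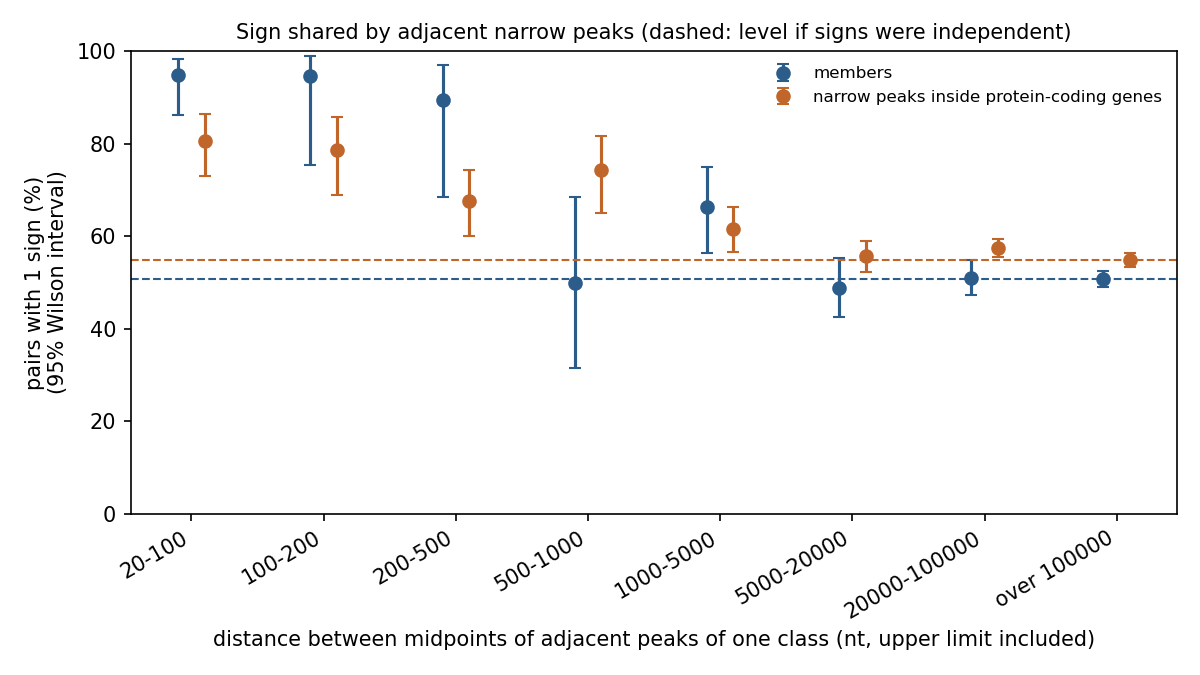
Share of adjacent pairs with 1 sign by the distance between their midpoints, for members (blue) and for narrow peaks inside protein-coding genes (orange), with 95% Wilson intervals; dashed lines give the share if signs were independent. Member pairs stand at 89.5% to 95% in the 3 classes from 20 to 500 nt and lie on the dashed line beyond 5000 nt.

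The group with the most members was a stretch of chromosome 1 that carries pseudogenes of mitochondrial genes. It held 9 members over 3720 nt, chr1:24611601-24615320, all with the plus sign. Inside it lie the pseudogenes Gm10222 and Gm10925, and the gene table lists mt-Atp6, a subunit gene of the mitochondrial ATP synthase, among the synonyms of Gm10925. These held 1 and 2 further plus peaks, and no other peak within 2 kb of the group had the minus sign. The mouse genome is known to hold a long copy of mitochondrial DNA here, and the list has 0 peaks on the mitochondrial chromosome itself; which of these the reads came from was not tested. The nearest protein-coding gene was Col19a1, a collagen gene, 23.7 kb away, whose 1 peak had the minus sign.

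Of the other 9 groups among the 10 largest, 7 had a single sign. On chromosome 17, 7 minus members spanned 1640 nt (chr17:22876241-22877880), 8.93 kb from the zinc finger gene Zfp945. On chromosome 9, 5 plus members spanned 940 nt (chr9:3257741-3258680), 76.6 kb from Alkbh8, which encodes a tRNA methyltransferase. On chromosome 4, 2 groups of 4 members lay on either side of Gm10573, 178 kb and 141 kb from it (chr4:122122901-122123060 and chr4:122455261-122455440). They had the same order of signs, plus, minus, plus, plus, at offsets of 0, 20, 40 and 140 nt in the first and 0, 20, 60 and 160 nt in the second. Whether the 2 stretches are copies of each other could not be read without their sequence.

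Of the remaining 5 groups among the 10 largest, each had 4 members over 300 to 360 nt. Groups tied at 4 members were ranked by shorter span, so longer ones of that size fell outside the 10. Those near Cntnap5a, Eea1, Snx16 and Cd209a were all plus and the one near B3gnt2 all minus. The group on chromosome 1 lay 1780 kb from Cntnap5a, a neuronal cell adhesion gene, and that on chromosome 3 lay 1465 kb from Snx16, a sorting nexin gene. The group on chromosome 10 lay 32.0 kb from Eea1, the gene of an endosome tether. Near B3gnt2, a glycosyltransferase gene, and Cd209a, a lectin receptor gene, the distances were 126 kb and 5.42 kb. In all, 13 of the 16 groups with 4 or more members had 1 sign, 7 of them plus and 6 minus.

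A group outside the rule for named genes, singled out after its values were seen, lay beyond the polyubiquitin gene Ubb. Its 4 members were all minus and spanned 480 nt (chr11:62560481-62560960), 7.27 kb past the downstream end of Ubb, which is on the plus strand, and 13.5 kb before Trpv2, an ion channel gene. The 8 peaks inside Ubb also all had the minus sign. No peak lay within 2 kb of the group on either side.

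**Figure D5:**
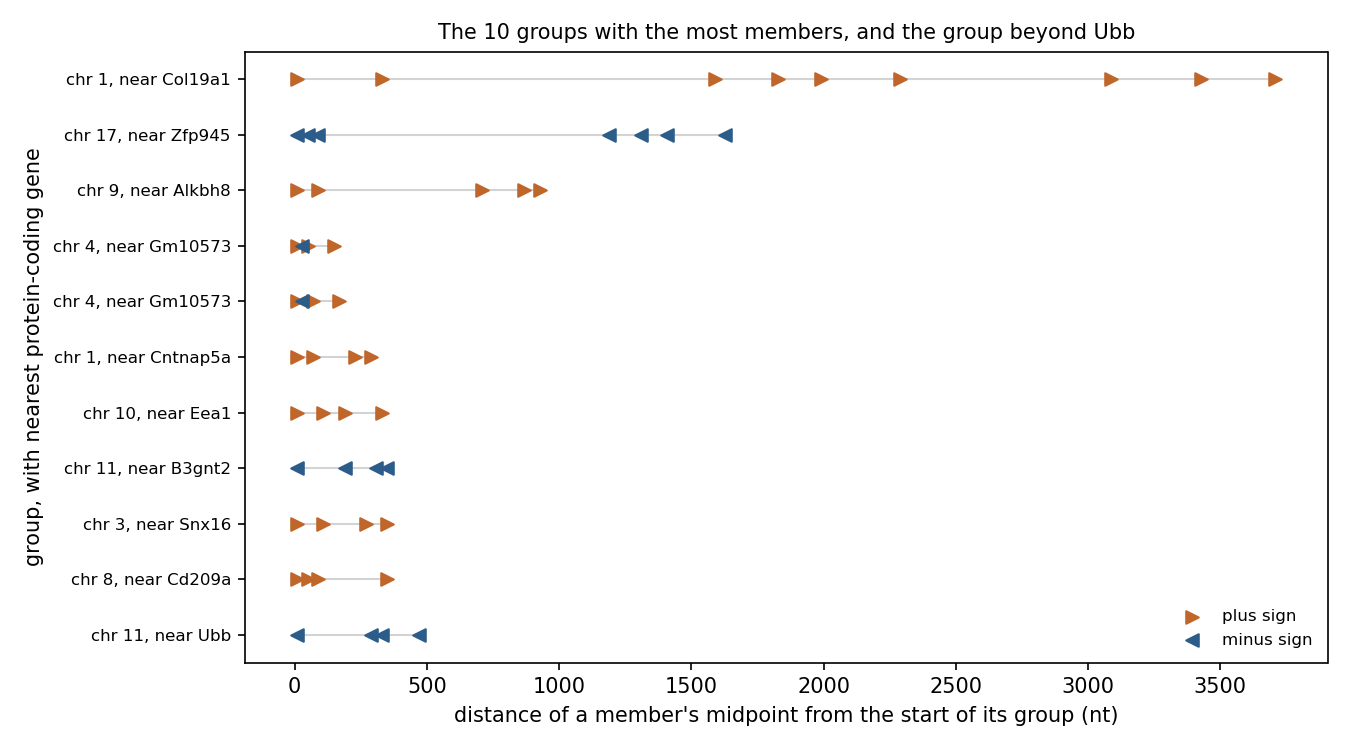
Midpoints of the members in the 10 groups with the most members and in the group beyond Ubb, in nt from the start of each group; orange arrows are plus members, blue arrows minus members. The group near Col19a1 holds 9 plus members over 3720 nt, and only the 2 groups near Gm10573 mix signs.

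No protein-coding gene was nearest to more than 10 members. Members named 2930 genes as their nearest, 2043 of these for 1 member. Adgrl2, an adhesion receptor gene, and Snx16 were nearest to 10 members each, over 1.54 and 1.49 Mb of territory, where 4.97 and 4.80 would lie at the overall density. Col19a1 was also nearest to 10, but over 0.0390 Mb, 9 of them in the group of mitochondrial pseudogenes. The cadherin genes Cdh20 and Cdh8 had 9 and 8, where 5.84 and 9.08 would lie, and the protocadherin gene Pcdh9 had 8 where 10.4 would lie. Gm10573 had 9, where 1.61 would lie, and 8 of these were in its 2 groups. 1700018B08Rik had 8 where 0.599 would lie, and the ephrin gene Efna5 and the ephrin receptor gene Epha7 had 7 each where 5.90 and 8.15 would lie. Ties were settled by name. The genes were picked for having the most members. The expected numbers do not adjust for distance, although density fell to 1.48 per Mb beyond 500 kb from protein-coding genes. They therefore cannot show an excess or a shortfall for territory at such distances.

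The members farthest from any protein-coding gene lay over 2 Mb away. For 4 of the 5 the nearest such gene was a cadherin or protocadherin gene, and for 2 of these it was Cdh20. How much territory at such distances has a gene of this family as its nearest was not counted. The 4 therefore do not show a preference for the family. The farthest, a minus member at chr14:90775361-90775380, was 2.24 Mb from Pcdh9 and 55.0 kb from the pseudogene Gm18082. Next came a plus member on chromosome 1 at 2.09 Mb from Cdh20, a minus member on chromosome 18 at 2.08 Mb from Pik3c3, the gene of a lipid kinase, a second plus member at 2.08 Mb from Cdh20, and a minus member on chromosome 14 at 2.07 Mb from Pcdh17. The member near Pik3c3 lay 4.10 kb from the pseudogene Gm5064, and the other 4 were 55.0 to 251 kb from any annotated noncoding gene.

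Members near genes of the germline and of the MTR4 pathway were counted within 50 kb of each gene, where enhancers often lie. Over all 21887 protein-coding genes, 3562 (16.3%) had a member within 50 kb, and territory within 50 kb of them held 4.52 per Mb (95% exact Poisson interval 4.33 to 4.72). The lists are set beside this background by counts and densities, without a test. Among undifferentiated spermatogonia genes it was 9 of 14 (64.3%), each with 1 member, at 13.1 per Mb (6.01 to 24.96). They included Cdh1, a cadherin gene, with its member 6.64 kb away, Gfra1, the gene of the receptor for the niche factor GDNF, with 29.1 kb, Id4, a transcriptional inhibitor gene, with 48.6 kb, and Lhx1, a transcription factor gene, with 24.1 kb. In this list 4 of 14 genes had a member within 20 kb, against 7.38% of all genes.

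The other lists had 4.48 to 9.99 members per Mb of territory, with intervals that include the background. The intervals of the lists are not adjusted for the number of lists. Among differentiating spermatogonia genes 3 of 14 (21.4%) had a member within 50 kb, at 7.48 per Mb (95% exact Poisson interval 2.04 to 19.1). These were Kit with 2, the nearest 19.3 kb away, and the RNA-binding protein gene Dazl and the homeobox gene Rhox13 with 1 each. Retinoic acid genes had one in 6 of 17 (35.3%), at 7.69 per Mb (2.82 to 16.7). Cyp26b1, whose enzyme breaks down retinoic acid, had 2 plus members, the nearest 45.4 kb away. Its relatives Cyp26a1 and Cyp26c1, neighbours on chromosome 19, shared a minus member 25.1 kb from Cyp26a1, and Aldh1a2, of retinoic acid synthesis, had a minus member at 19.2 kb. Immediate early genes had a member in 5 of 26 (19.2%), 1 each, at 4.48 per Mb of territory (95% exact Poisson interval 1.45 to 10.4). They included Egr1, Fosl2, Klf2 and Nr4a1, all genes of transcription factors, with the member 22.3, 13.0, 43.0 and 28.5 kb away. Exosome and cofactor genes had one in 3 of 19 (15.8%, against 16.3% of all genes), at 9.99 per Mb (2.72 to 25.6). Tent4a, the gene of an RNA-tailing polymerase, had 2, the nearest 7.62 kb away. Exosc8, a subunit of the exosome core, had 1. Zcchc8, the scaffold of an MTR4 adaptor complex, had 1 at 3.67 kb. Mtrex itself had 0. With 4 to 9 members a list, the intervals are wide.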

How the data were processed

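LACE-seq peaks of MTR4 were taken from the 1 list the authors deposited. Reads were handled with cutadapt 1.15 and Bowtie 1.0.0 on build mm10, per the submitters' processing notes. The peak caller, duplicate removal and pooling are not given in the sources used here; the deposited name reads as a merged, deduplicated Piranha list, which was not checked. The deposited positions have no unit of signal: 4 columns hold chromosome, start, end and sign, all on a grid of 20 nt.

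Midpoints (the 10th of the 20 bases) were joined to 49943 RefSeq genes (GRCm38.p6, the chromosomes of mm10), 21887 of them protein-coding. Strand came from the promoter table for 17492 of those and for 9533 of 12727 long noncoding genes. Territory was every position on the 20 nt grid that satisfies the rule, between the first and last gene or peak of a chromosome. Shares have 95% Wilson intervals and densities 95% exact Poisson intervals. Fisher's exact test or an exact conditional binomial test was used, two-sided, with Benjamini-Hochberg adjustment over 8 tests and a threshold of 0.05 (Python 3.11.15, scipy 1.17.1). On simulated peaks, a density ratio planted at 2 was recovered as 1.87 and a share of same-sign pairs planted at 90% as 87.9%. The members and lists were chosen with earlier results of these data known. Genes were named by rule: the 10 groups with the most members, the 5 farthest members and the 10 genes nearest to most members. Up to 4 genes of each list were also named, by number of members. Ties among groups went to the shorter span and then by coordinate, and other ties were settled by name. No genome sequence was used, so base composition and repeats at members were not analysed apart from the promoter windows. The printed sequences are those of the 6 members closest to an annotated start. AATAAA and CACGTG were the motifs searched in the promoter windows.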

Additional observations from a re-analysis of the deposited data

How the results depend on the processing

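Alternatives were other distance limits (over 1000, 5000 and 10000 nt), overlap in place of the midpoint, fewer gene classes counted as genic, merging of close peaks, leaving out members near noncoding genes, and other neighbour, pair, side and list windows. Leaving out X and Y, moving peaks by 20 or 40 nt, counting only neighbours outside protein-coding genes and leaving out pairs up to 100 nt were added after the data had been seen. The number of members ran from 3732 to 4755. Direction and side of the threshold held in all alternatives run for the plus share, solitary peaks, the decline with distance, chromosome X and the sign by side. The same-sign share within 1000 nt no longer passed at limits of 5000 nt (82.4%) and 10000 nt (79.2%), with merged peaks (66.1%), without members near noncoding genes (81.0%) and with pairs up to 100 nt left out whatever their signs (75.8%). The share near noncoding genes no longer passed with peaks moved 40 nt (4.29%). Of 90 list entries, 10 had a member within 20 kb (11.1%, against 7.38% of all genes), 26 within 50 kb (28.9%, against 16.3%) and 37 within 100 kb (41.1%, against 28.6%). Merging joins only peaks of 1 sign, so it lowers the same-sign share by construction. The cause of the other changes was not tested. The decline with distance had no near class at the limit of 10000 nt. Base composition and repeats, planned for all members, were not run without a genome. No paired analysis was possible because there is 1 group and 1 list, and for the same reason no replicate could be left out. Depth is unknown, so no peak can be weighted by reads.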

Other observations

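Peaks of 40 nt or wider at the same kind of place numbered 205 of the 676 wide peaks in the list, and 47.8% of them had the plus sign (95% Wilson interval 41.1 to 54.6). Among members within 1000 nt of a long noncoding gene of known strand, the sign was opposite to that gene in 20 of 37 on the upstream side and in 18 of 34 on the downstream side. Outside small RNA genes of 4 classes (tRNA, snRNA, snoRNA and miRNA), 107 of the 117 peaks of any width within 100 nt lay at the end with the lower coordinate, 38 with the plus sign and 69 with the minus sign; of the other 10, 8 were beside miRNA genes.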
